A study of Rattus norvegicus with 30 samples.

Results

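Rat bone marrow mesenchymal stem cells (BMSCs) after 3 h in chondrogenic medium (CH_3h) were compared with undifferentiated cells (CON). Members were taken by their titles, samples 1 to 3 of CH_3h and samples 1 to 3 of CON, which are 6 of the 30 samples in the series. The series followed the RNA of BMSCs into osteogenic (OS), adipogenic (AD) and chondrogenic (CH) differentiation, with 3 samples in each of 10 groups. Marrow was flushed from the femurs and tibias of 3 female Sprague Dawley rats aged 3 weeks, and the cells were used after expansion in DMEM with fetal bovine serum. CON cells were undifferentiated BMSCs in growth medium, and CH_3h cells had received the Promocell chondrogenic differentiation medium for mesenchymal stem cells in flat culture. Each sample pooled 3 cultures. Whether the samples of a group come from separate animals is not stated, so the p-values measure only the spread between samples. No uninduced cells of 3 h were used here, so the change of medium and the induction itself cannot be told apart.

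Cartilage formation starts when mesenchymal cells take up a chondroprogenitor state under the transcription factor SOX9, which with SOX5 and SOX6 switches on the genes of cartilage matrix such as Col2a1 and Acan. Ligands of the TGF-beta family drive this step in culture, whereas BMP ligands and their ID target proteins, hyaluronan turnover and inflammatory signals shape how far it goes. Marrow stromal cells also secrete chemokines and matrix-degrading enzymes, and in culture they divide until they differentiate.

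The depth behind the values was 6981467, 7179051 and 6594559 reads in the CON samples and 6673387, 6812181 and 8135015 reads in the CH_3h samples. A signal of 3 reads was 0.418 to 0.455 CPM in CON and 0.369 to 0.450 CPM in CH_3h, which covers counting error only. The listed genes held 53.7 to 54.2% of the reads in CON and 61.5 to 66.3% in CH_3h. Values below are CPM (counts of reads relative to all reads of the sample, with no gene length in them), so levels are compared within a gene and not between genes. Per-sample values are given for samples 1, 2 and 3 in that order, errors after ± are SDs with n = 3, and fold changes are log2 differences of log2(CPM + 1) with the SE of a limma fit to all 30 samples. A lone number in brackets after a change of mean levels is that log2 fold change, and positive means higher in CH_3h. Some genes that every cell uses were near 0 here, with Vim at 0.286, 0.139 and 0.303 CPM in CON and Actb at 3.01, 0.557 and 2.43 CPM, and Tpi1 and Pfn1 were listed at 0 in all 6 samples. A low value under a gene name therefore need not be the whole signal of that gene.

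The label was checked against marker genes. Of 20 mesenchymal stem cell markers 13 were listed, and their summed level was 16917, 16118 and 16200.0 CPM in CON and 15803, 17245 and 15677 CPM in CH_3h. Of these, Itgb1, a subunit of matrix receptors, was at 8160.2, 7769 and 7259 CPM in CON and 8443, 9737 and 8890.1 CPM in CH_3h, with Thy1 at 8052 ± 283 and 6029 ± 374 CPM, while Vcam1 was listed at 0 in all 6 samples. Only 6 of the 13 reached 1 CPM in any of the 6 samples, and Itgb1, which many cell types express, and Thy1 made up most of the sum. Of 18 macrophage markers 5 were listed, their sum was 0, 0.696 and 0 CPM in CON and 0.450, 0.440 and 1.23 CPM in CH_3h, with Mrc1 at 0. Of 28 markers of other blood cells 10 were listed, summing to 1.86, 1.81 and 1.52 CPM in CON and 2.10, 2.94 and 3.44 CPM in CH_3h, where Ms4a1 had 0.899, 2.06 and 2.46 CPM against 0 in the CON samples. Of 12 endothelial markers 6 were listed, summing to 4.01, 4.74 and 3.49 CPM in CON and 2.70, 2.79 and 3.69 CPM in CH_3h, with Erg at 0. The sums of osteoblast and adipocyte markers were lower in CH_3h than in CON, with no test made of a sum. These falls lay with Mgp and Lpl, the most abundant members, while the tested members went both ways. Of 7 tested osteoblast markers, 1 was called higher and 1 lower by the rule given below (0 and 1 after median-ratio scaling). The log2 fold change was above 0 in 6 of the 7. Of 10 tested adipocyte markers, 1 was called higher and 1 lower, and 6 were above 0. The 14 listed of 21 osteoblast markers summed to 3312, 3216 and 3271 CPM in CON and 950.04, 946 and 875 CPM in CH_3h, and Mgp, described below, held most of the CON sum. The 16 listed of 26 adipocyte markers summed to 763, 702 and 817 CPM in CON and 438, 438 and 394 CPM in CH_3h, and Lpl, a lipase of adipocytes and other cells, had 721, 663 and 777 CPM of it in CON and 243, 259.8 and 238 CPM in CH_3h. The listed markers of blood and endothelial cells were thus within a few CPM of 0 in all 6 samples, while the level of the stem cell markers rests on few genes.

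After 3 h in chondrogenic medium, Sox9 was about an order of magnitude higher, the secreted protein gene Angptl7 went from a few reads to about 500 CPM, and most tested genes of DNA replication and of mitosis rose. The hyaluronan-degrading protein gene Cemip, which held more reads than any other listed gene in CON, fell from 2.04% to 0.209% of the reads, and Il6, chemokine genes and the Id genes Id2 and Id3 fell. Of 4363 tested genes, 785 (18.0%) passed the call rule (an absolute log2 fold change of 1 or more with an adjusted p under 0.05). Of these, 572 (13.1% of the tested genes) were higher and 213 (4.88%) lower in CH_3h. A fitted change of at least 4-fold was reached by 129 of the higher and 53 of the lower genes. The CH_3h and CON samples did not overlap for 2394 genes (54.9%), 1701 above and 693 below CON, and 782 of the 785 called genes were among them. Since these are bulk samples, fewer cells of a type and less RNA per cell cannot be told apart.

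How many called genes were higher and how many lower depended on the scaling. The median log2 fold change of all tested genes was 0.21, and median-ratio scaling shifted the fold changes by a median of -0.26, quantile normalization by -0.17 and giving each sample the same sum of listed genes by -0.18. After median-ratio scaling 691 genes were called, 368 higher (8.43% of the tested genes) and 323 lower (7.40%), so the higher share of called genes was 53.3% in place of 72.9%. It was 51.9% after quantile normalization, 58.1% after scaling to the same sum and 50.5% with edgeR, which fitted the recovered reads. Called both before and after median-ratio scaling were 581 genes, with 0 of them in opposite directions, and 204 were called before it only. The fold changes below are on the CPM scale, on which the median of all tested genes was 0.21. The filter for these genes used all 30 samples. With the 6 samples only, 3213 genes were tested, with a median of 0.31, and 557 were called higher and 202 lower. A call that median-ratio scaling removes is marked where the gene is named. The counts of each gene list stand beside shares of 13.1% higher and 4.88% lower over all tested genes, and no list was tested against them. Members and lists were chosen with earlier results of these data known. Their counts and medians therefore describe the chosen genes, and a gap from these shares is not evidence about a pathway.

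**Figure D1:**
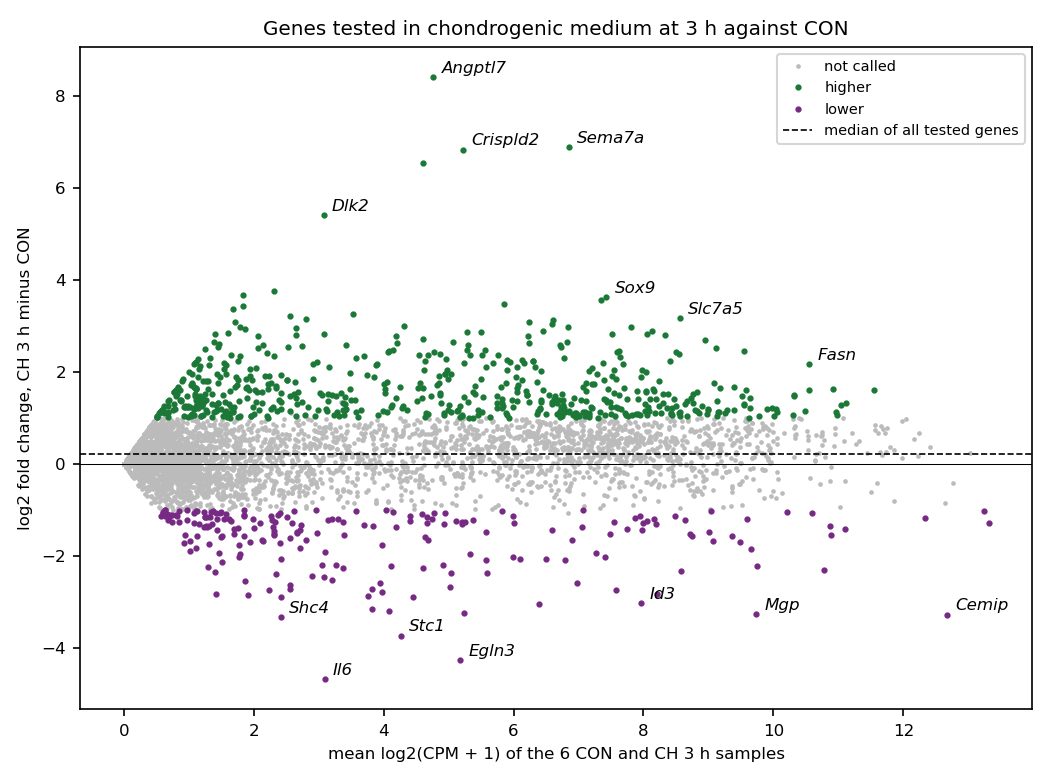
Log2 fold change of CH_3h against CON for each tested gene (vertical axis) by its mean level in the 6 samples on the log2(CPM + 1) scale (horizontal axis), with called genes coloured and some named. The cloud of genes lies around a median of 0.21, and Angptl7 at 8.40 and Il6 at -4.68 mark the ends of the range.

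The 10 largest rises (chosen among genes whose samples did not overlap and whose mean reached 5 CPM) were led by secreted and membrane proteins. Angptl7, a secreted protein of the angiopoietin-like family, was at 0.430, 0.279 and 0.758 CPM in CON and 490.5, 500.4 and 504 CPM in CH_3h (log2 fold change 8.40, SE 0.56, adjusted p = 2.97e-13). At most 5 reads stood behind it in a CON sample, and the CH_3h samples were within a few percent of one another. Sema7a, a membrane-anchored semaphorin that signals through integrins, was at 12.3, 9.47 and 7.58 CPM in CON and 1255, 1330.0 and 1184 CPM in CH_3h (log2 fold change 6.89, SE 0.17, adjusted p = 1.2e-23). Crispld2, a secreted protein of the cysteine-rich secretory family, was at 2.15, 2.79 and 2.58 CPM in CON and 395, 416 and 375 CPM in CH_3h (log2 fold change 6.83). Each CH_3h sample of both genes was far above each CON sample. Gldn, which encodes gliomedin, a protein that gathers sodium channels at nodes of Ranvier, had 1.86, 1.11 and 1.67 CPM in CON and 235, 241 and 227 CPM in CH_3h (log2 fold change 6.54, SE 0.37, adjusted p = 9.3e-15). Dlk2, a membrane protein related to the Notch ligands, had 0.716, 0.279 and 0 CPM in CON and 53.2, 61.2 and 47.8 CPM in CH_3h (log2 fold change 5.40). The CON and CH_3h samples of neither gene overlapped.

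Gdf6, a BMP-family ligand that takes part in joint formation, was at 0.716, 0.418 and 0 CPM in CON and 14.8, 21.0 and 16.2 CPM in CH_3h (log2 fold change 3.76, SE 0.33, adjusted p = 8.5e-11). Mip, the aquaporin of the eye lens, was listed at 0 in all CON samples and at 11.5, 10.9 and 12.5 CPM in CH_3h, at least 26.8-fold higher against 3 reads per CON sample. Gfpt2, an enzyme at the entry of hexosamine synthesis, which supplies the sugars of glycosaminoglycans, was at 45.1, 48.1 and 46.6 CPM in CON and 571, 569.6 and 535 CPM in CH_3h (log2 fold change 3.56, SE 0.11, adjusted p = 8.67e-21). All CH_3h samples of these genes were above all CON samples. Fam83d, a protein of the mitotic spindle, went from 16.4 ± 1.33 to 193 ± 10.1 CPM (3.48), and Sox9, given with the transcription factors, completes the 10.

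The 10 largest falls joined an inflammatory cytokine, genes known to respond to low oxygen and secreted proteins of stroma. Il6, the cytokine interleukin 6, was at 43.4, 39.3 and 44.1 CPM in CON and 0.300, 1.47 and 0.492 CPM in CH_3h (log2 fold change -4.68, SE 0.29, adjusted p = 9.01e-14). Egln3, a prolyl hydroxylase that marks HIF proteins for degradation, was at 157, 150.3 and 168 CPM in CON and 5.84, 8.95 and 7.13 CPM in CH_3h (log2 fold change -4.28, SE 0.23, adjusted p = 3.08e-15). Stc1, a secreted glycoprotein of calcium and phosphate balance, was at 68.9, 67.6 and 71.4 CPM in CON and 4.50, 4.55 and 3.81 CPM in CH_3h (log2 fold change -3.74). In each of these genes the CH_3h samples lay below the CON samples with a wide gap. Mgp, an inhibitor of calcification made by cartilage and vessels, was at 2749.6, 2604 and 2603 CPM in CON and 289, 267 and 263 CPM in CH_3h (log2 fold change -3.28, SE 0.23, adjusted p = 7.69e-13). Sfrp2, a secreted antagonist of Wnt signals, was at 116, 119.7 and 113 CPM in CON and 10.8, 11.2 and 11.9 CPM in CH_3h (log2 fold change -3.25, SE 0.75). Lum, the keratan sulfate proteoglycan lumican, was at 55.7, 47.9 and 47.3 CPM in CON and 3.00, 6.75 and 4.55 CPM in CH_3h (log2 fold change -3.20, SE 0.75). Their groups did not overlap, and the wide SEs of Sfrp2 and Lum pool the spread of all 10 groups. Shc4, an adaptor of receptor tyrosine kinases, went from 16.0 ± 2.33 to 0.697 ± 0.298 CPM (-3.33), Mab21l3 from 41.1 ± 2.53 to 3.75 ± 0.791 CPM (-3.16) and Alpk1, a kinase that senses bacterial sugars, from 241 ± 10.3 to 28.1 ± 2.91 CPM (-3.06), and Cemip, given with the hyaluronan genes, completes the 10.

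Among chondrogenic transcription factors, 9 of 14 tested members were called higher and 0 lower, with a median log2 fold change of 1.65. Median-ratio scaling gave 9 higher, 1 lower and a median of 1.32, the lower one being Nfia. Some members were put on this list with earlier results of these data known, so its count and median describe the chosen genes and are not set against all genes. Sox9, the master regulator of chondrocytes, was at 46.6, 46.8 and 50.8 CPM in CON and 622, 627 and 561 CPM in CH_3h (log2 fold change 3.62, SE 0.14, adjusted p = 2.69e-18). Runx3, a Runt factor of chondrocyte maturation, was at 0.286, 0.139 and 0 CPM in CON and 6.74, 6.90 and 7.74 CPM in CH_3h (log2 fold change 2.84, SE 0.32, adjusted p = 1.22e-08). Sox11, a SOX factor of skeletal progenitors, was at 0.859, 0.418 and 1.21 CPM in CON and 11.5, 10.7 and 7.498 CPM in CH_3h (log2 fold change 2.58, SE 0.31, adjusted p = 4.42e-08). For each of the 3 genes the lowest CH_3h sample was above the highest CON sample, from a start of at most 8 reads for Sox11 and 2 reads for Runx3. Scx, the scleraxis factor of tendon and its attachment to cartilage, was at 3.29, 1.95 and 2.58 CPM in CON and 15.4, 15.3 and 14.5 CPM in CH_3h (log2 fold change 2.17, SE 0.33, adjusted p = 2.36e-06). Gbx2, a homeobox factor, was listed at 0 in all CON samples and at 2.55, 4.26 and 4.06 CPM in CH_3h, at least 8.34-fold higher against 3 reads per CON sample. Epas1, the HIF factor that activates collagen and protease genes in chondrocytes, was at 366, 383 and 380.3 CPM in CON and 1250.2, 1201 and 1158 CPM in CH_3h (log2 fold change 1.67, SE 0.15, adjusted p = 8.87e-11). Each of these genes was higher in all CH_3h samples than in any CON sample. Tsc22d1 went from 14.8 ± 2.92 to 62.7 ± 7.47 CPM (2.02), Hic1 from 8.33 ± 1.76 to 27.5 ± 1.65 CPM (1.63) and Foxc2, a forkhead factor of the axial skeleton, from 5.43 ± 0.778 to 18.9 ± 4.31 CPM (1.62). Sox8 was at 0.198 ± 0.233 CPM in CON and 0.558 ± 0.154 CPM in CH_3h and was not called, and Sox6 was listed at 0 in all 6 samples.

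**Figure D2:**
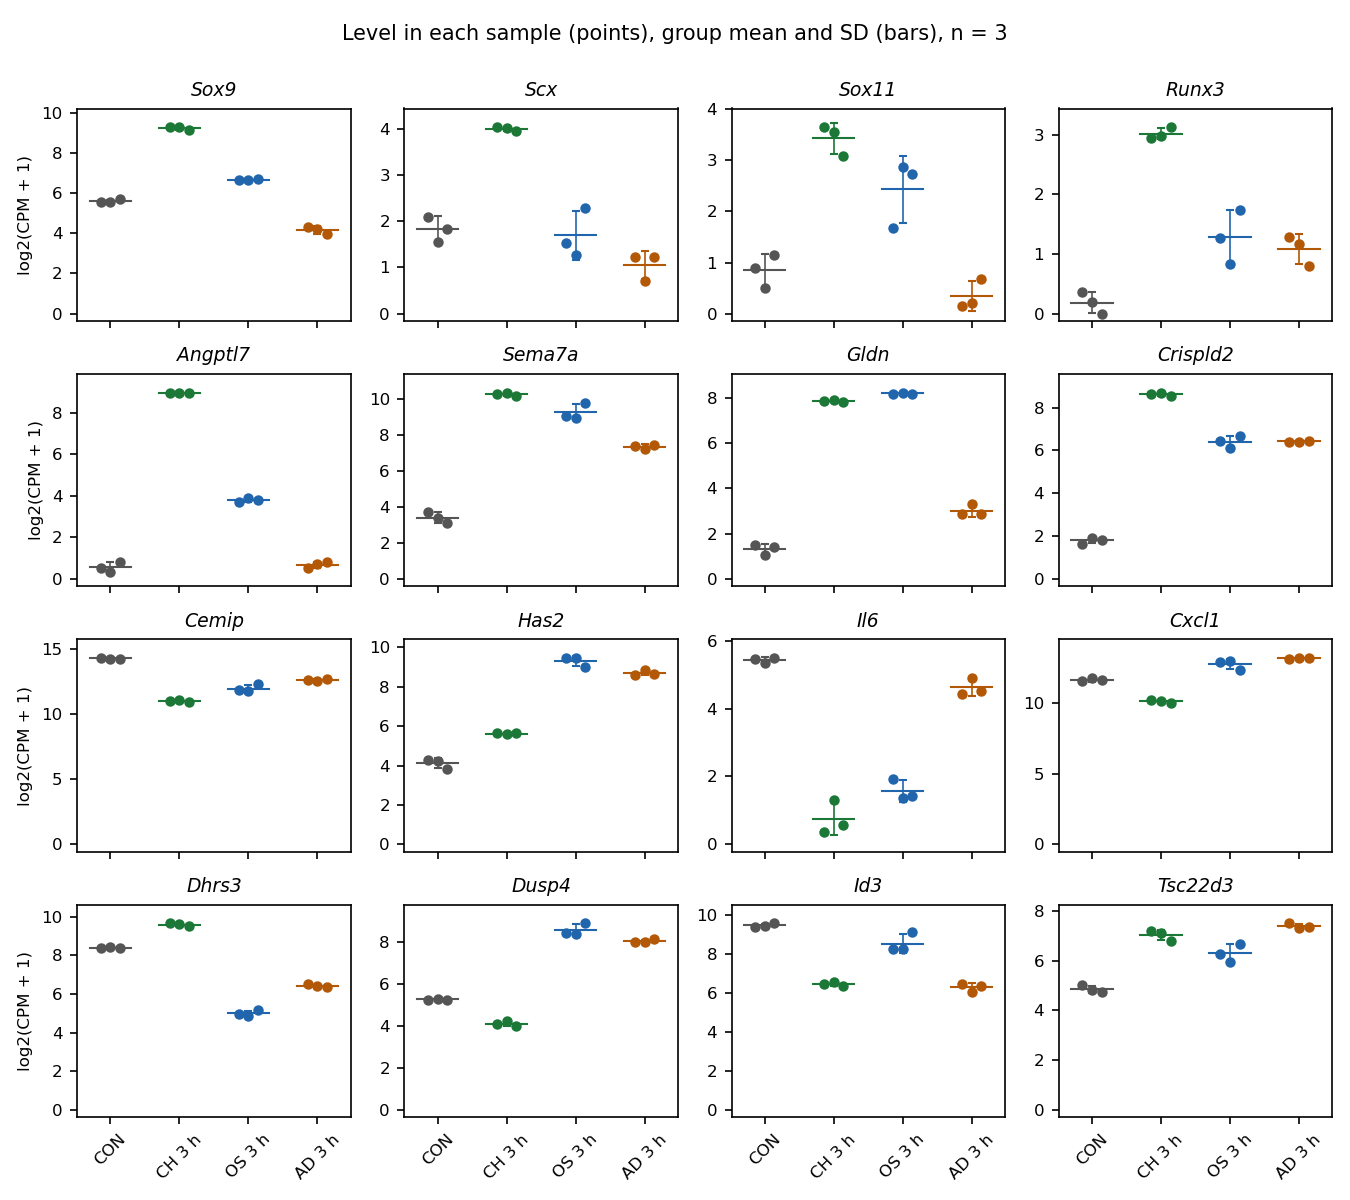
Level of some named genes in each sample of CON, CH_3h, OS_3h and AD_3h on the log2(CPM + 1) scale, with points for samples and bars for the group mean and SD (n = 3). Sox9 and Angptl7 in CH_3h stand above all samples of the other groups, whereas Gldn in CH_3h lies beside OS_3h.

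Of 9 tested cartilage matrix genes, 0 were called higher and 2 lower in CH_3h by limma. The 2 were Lum and Frzb, a secreted Wnt antagonist first isolated from cartilage, which was at 13.9, 13.9 and 12.9 CPM in CON and 0.899, 0.587 and 1.48 CPM in CH_3h (log2 fold change -2.90, SE 0.40, adjusted p = 5.88e-07). The CH_3h samples of Frzb were all below the CON samples. Col2a1, the collagen of cartilage, was listed at 0 in all 6 samples, and Acan, the core protein of aggrecan, at 0.150, 0 and 0 CPM in CH_3h and at 0 in CON. Comp, a matrix protein of cartilage, was at 0, 0.139 and 0 CPM in CON and 0, 0.881 and 0.738 CPM in CH_3h, within a few reads of 0, and a difference was not detectable at this depth. Matn4, a matrilin, was at 0.520 ± 0.502 and 1.37 ± 0.409 CPM and was not called.

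Among TGF-beta target genes, 10 of 19 tested members were called higher and 2 lower, with a median log2 fold change of 1.06. Median-ratio scaling gave 6 higher, 2 lower and a median of 0.72. Cnn1, a calponin of contractile cells, was at 87.1, 88.7 and 88.0 CPM in CON and 439, 444 and 441 CPM in CH_3h (log2 fold change 2.31, SE 0.17, adjusted p = 1.61e-12). Tagln, transgelin, which binds actin, went from 13.1 ± 1.65 to 67.6 ± 7.98 CPM (2.28), Ctgf, a matricellular growth factor, from 16.1 ± 3.91 to 63.8 ± 6.71 CPM (1.95) and Tgfbi, a matrix protein that binds integrins, from 14.8 ± 1.32 to 60.2 ± 10.1 CPM (1.94). Each of these genes was higher in every CH_3h sample than in every CON sample. Kank4, a cortical adaptor protein, was at 0.143, 0.139 and 0.758 CPM in CON and 8.84, 8.37 and 9.96 CPM in CH_3h (log2 fold change 2.93). Snai2, a repressor of epithelial genes, went from 7.11 ± 1.10 to 16.6 ± 1.53 CPM (1.13, not called after median-ratio scaling), and Tgfb1, the ligand itself, from 182 ± 2.29 to 382 ± 15.8 CPM (1.06, not called after median-ratio scaling). Lower were Angptl2, from 1709 ± 85.6 to 819 ± 24.4 CPM (-1.06), and Ahrr, from 7.13 ± 3.11 to 2.73 ± 0.891 CPM (-1.07). The call of Ahrr was lost without CON sample 1 (log2 fold change -0.82), CON sample 3 (-0.98), CH_3h sample 2 (adjusted p = 0.109) or CH_3h sample 3 (-0.95), and also with no filter (adjusted p = 0.0933) or a pseudocount of 0.1 (adjusted p = 0.0731).

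Among TGF-beta, activin and BMP pathway components, 5 of 13 tested members were called higher and 3 lower, with a median log2 fold change of 0.10 (4 and 3 after median-ratio scaling), a direction that turns to -0.03 after median-ratio scaling and -0.19 with edgeR. Nog, a secreted antagonist of BMP ligands, was at 6.73, 6.96 and 10.3 CPM in CON and 29.1, 29.5 and 26.6 CPM in CH_3h (log2 fold change 1.73, SE 0.41, adjusted p = 0.00105). Fstl1, a follistatin-like secreted protein, went from 16.5 ± 4.27 to 49.4 ± 8.23 CPM (1.54) and Lefty1, an antagonist of Nodal, from 0.145 ± 0.00631 to 1.72 ± 0.842 CPM (1.19). Inhbb, a subunit of activins and inhibins, went from 535 ± 32.4 to 241 ± 10.1 CPM (-1.14), Tgfbr3, the co-receptor betaglycan, from 863 ± 18.7 to 308 ± 13.2 CPM (-1.48) and Acvr2b, a receptor of activins, from 7.45 ± 0.628 to 1.99 ± 0.767 CPM (-1.53). The largest rise of the list was that of the ligand Gdf6 (3.76). Among BMP target genes, 1 of 8 tested members was called higher and 3 lower, with a median log2 fold change of 0.12, which turns to -0.10 after median-ratio scaling. Id3, an inhibitor of bHLH factors and a classic BMP target, was at 683, 689 and 769.7 CPM in CON and 86.6, 93.5 and 80.8 CPM in CH_3h (log2 fold change -3.02, SE 0.20, adjusted p = 1.8e-13). Id2, of the same family, was at 41.3, 43.0 and 37.0 CPM in CON and 4.80, 7.05 and 3.69 CPM in CH_3h (log2 fold change -2.78, SE 0.24, adjusted p = 6.99e-11). In both genes every CH_3h sample was several times lower than every CON sample. Atoh8, a bHLH factor, went from 34.3 ± 1.31 to 15.6 ± 3.16 CPM (-1.10), a call lost without CH_3h sample 3 (log2 fold change -0.95), while Msx2 at 8.25 ± 1.95 and 15.5 ± 0.945 CPM was not called.

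Among hyaluronan genes, 2 of 6 tested members were called higher and 1 lower, with a median log2 fold change of 0.57. Cemip, which binds hyaluronan and is needed for its breakdown, was at 20866, 20136 and 20114 CPM in CON and 2099.5, 2183 and 2001 CPM in CH_3h (log2 fold change -3.28, SE 0.13, adjusted p = 2.69e-18). Has2, a synthase of hyaluronan, was at 18.8, 18.1 and 13.0 CPM in CON and 49.2, 47.1 and 48.6 CPM in CH_3h (log2 fold change 1.5, SE 0.27, adjusted p = 3.09e-05). The gene for breakdown was lower and the gene for synthesis higher in all CH_3h samples than in any CON sample. Hmmr, a hyaluronan receptor that also acts at the mitotic spindle, went from 32.3 ± 1.05 to 152 ± 17.7 CPM (2.20), and the receptor gene Cd44 was at 599.5 ± 25.7 and 993 ± 36.2 CPM without a call. Among matrix proteases and inhibitors, 4 of 18 tested members were called higher and 3 lower, with a median log2 fold change of -0.33, and median-ratio scaling gave 3 higher, 5 lower and a median of -0.58. Mmp2, a gelatinase, was at 15811, 15663 and 16224 CPM in CON and 6641, 6906 and 6084 CPM in CH_3h (log2 fold change -1.28, SE 0.18, adjusted p = 7.01e-07), a call that quantile normalization removes. Ctsd, a lysosomal aspartic protease, went from 2235 ± 123.4 to 1064 ± 36.0 CPM (-1.07) and Adamts4, an aggrecanase, from 52.4 ± 4.11 to 21.6 ± 1.77 CPM (-1.24). Adamts8 went from 11.0 ± 1.47 to 62.8 ± 5.91 CPM (2.42) and Plau, the urokinase activator of plasminogen, from 2.25 ± 1.08 to 8.10 ± 0.755 CPM (1.53). Among fibrillar and basement membrane genes, 3 of 27 tested members were called higher and 0 lower, with a median log2 fold change of 0.36, and median-ratio scaling gave 2 higher, 2 lower and a median of 0.15. Col5a1, a chain of the collagen that starts fibrils, was at 3.29, 2.51 and 3.18 CPM in CON and 14.5, 12.6 and 12.9 CPM in CH_3h (log2 fold change 1.85, SE 0.24, adjusted p = 1.99e-07). All CH_3h samples of Col5a1 were above all CON samples. Lama5, a laminin chain, went from 869 ± 7.87 to 1823 ± 102 CPM (1.07, not called after median-ratio scaling), and Nid1, which links laminin to collagen, was at 3791 ± 16.9 and 5520.3 ± 210.1 CPM without a call.

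Among cytokines, chemokines and NF-kB genes, 0 of 20 tested members were called higher and 10 lower, with a median log2 fold change of -1.08, and median-ratio scaling gave 0 higher, 11 lower and a median of -1.36. Cxcl1, a chemokine that draws neutrophils, was at 2996, 3574 and 3120.0 CPM in CON and 1159, 1112 and 1048 CPM in CH_3h (log2 fold change -1.54, SE 0.13, adjusted p = 3.43e-11). Il1a, the cytokine interleukin 1 alpha, was at 9.74, 8.64 and 5.61 CPM in CON and 0.749, 0.294 and 0.492 CPM in CH_3h (log2 fold change -2.55, SE 0.30, adjusted p = 4.35e-08). Cxcl6 was at 22.2, 13.9 and 15.5 CPM in CON and 2.70, 2.64 and 3.32 CPM in CH_3h (log2 fold change -2.21). In all of them the CH_3h samples lay under the CON samples. Ccl7, a chemokine for monocytes, went from 1130.1 ± 14.9 to 380.1 ± 41.1 CPM (-1.58), Csf2, the growth factor GM-CSF, from 3.61 ± 0.597 to 0.381 ± 0.323 CPM (-1.76) and Tnfrsf11b, osteoprotegerin, from 302 ± 22.2 to 105 ± 6.59 CPM (-1.52). Relb, a subunit of NF-kB, went from 3.93 ± 0.827 to 0.657 ± 0.201 CPM (-1.57), whereas Rela was at 302 ± 2.21 and 287 ± 14.4 CPM and Nfkbia, the inhibitor of NF-kB, at 498 ± 10.4 and 372 ± 21.6 CPM without a call. Ccl2 was at 1371 ± 99.4 and 813 ± 42.3 CPM (log2 fold change -0.75), short of the call on this scale. Among interferon response and antigen presentation genes, 1 of 14 tested members was called higher and 2 lower, with a median log2 fold change of -0.15, and median-ratio scaling gave 1 higher, 4 lower and a median of -0.47. Gbp5, a guanylate-binding protein, went from 0.470 ± 0.558 to 2.27 ± 0.350 CPM (1.21) and Ifi27, an interferon-induced mitochondrial protein, from 99.98 ± 9.55 to 40.6 ± 5.72 CPM (-1.29).

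Among DNA replication genes, 12 of 21 tested members were called higher and 0 lower, with a median log2 fold change of 1.62, and median-ratio scaling gave 12 higher, 0 lower and a median of 1.28. Mcm6, a subunit of the helicase that opens DNA for copying, was at 102, 102 and 94.2 CPM in CON and 700.2, 752 and 673 CPM in CH_3h (log2 fold change 2.82, SE 0.12, adjusted p = 6.89e-18). Mcm3, of the same helicase, was at 63.5, 73.1 and 66.4 CPM in CON and 486, 497 and 466 CPM in CH_3h (log2 fold change 2.82, SE 0.16, adjusted p = 1.29e-14). Both had CH_3h samples several times above every CON sample. Cdt1, which loads the helicase, went from 19.1 ± 1.26 to 110.2 ± 6.09 CPM (2.47), Rrm1, a subunit of ribonucleotide reductase, from 163 ± 10.9 to 849.7 ± 62.5 CPM (2.37) and Tyms, which makes thymidylate, from 28.7 ± 1.04 to 120.0 ± 3.65 CPM (2.03). Among mitosis genes, 23 of 32 tested members were called higher and 0 lower, with a median log2 fold change of 1.59, and median-ratio scaling gave 21 higher, 0 lower and a median of 1.39. Kifc1, a motor protein that gathers spindle poles, was at 27.8, 35.4 and 34.0 CPM in CON and 306, 297 and 259 CPM in CH_3h (log2 fold change 3.11, SE 0.22, adjusted p = 8.31e-13). Cdc20, the activator of the anaphase-promoting complex, was at 38.1, 43.6 and 38.2 CPM in CON and 317, 350.1 and 290.1 CPM in CH_3h (log2 fold change 2.96, SE 0.26, adjusted p = 8.87e-11). Kif20a, a kinesin of cell division, was at 104, 113 and 90.8 CPM in CON and 778, 792 and 721 CPM in CH_3h (log2 fold change 2.89). The CON and CH_3h samples of all 3 genes did not overlap. Birc5, survivin, went from 16.3 ± 4.88 to 121 ± 6.94 CPM (2.86), Kif22, a chromosome-arm motor, from 43.1 ± 2.03 to 256 ± 13.8 CPM (2.54) and Cenpa, the histone of centromeres, from 6.33 ± 1.02 to 38.8 ± 5.04 CPM (2.44). Among histone genes, 9 of 23 tested members were called higher and 0 lower, with a median log2 fold change of 0.67 (8 and 0 after median-ratio scaling), and Hist1h2ao went from 157 ± 21.2 to 844 ± 13.0 CPM (2.43). Most histone mRNAs of replication lack a poly(A) tail, and the accounts of the libraries differ (ribosomal RNA removed, or an mRNA kit), so how fully these genes were captured is not known.

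The promoters of the mitosis genes were searched for the letters TTTGAA, the core of the cell cycle homology region, and CCAAT, the NF-Y box, which background knowledge links to genes of the G2 and M phases. Both were chosen after the values were seen, and both strands of the RefSeq promoters (build GRCr8, 250 bases before to 50 after the start) were read. Of 23 mitosis genes called higher, 19 matched a promoter by symbol, and TTTGAA stood in 14 of them (73.7%), against 18.3% of all 33469 promoters and 11.7% of the 3206 promoters of tested genes. CCAAT stood in 17 of the 19 (89.5%), against 37.5% of all promoters and 36.7% of those of tested genes, and both stood in 12 (63.2%), against 7.41% and 4.83%. Of the 12 DNA replication genes called higher, 11 matched, and TTTGAA stood in 1 of them (9.09%) and CCAAT in 7 (63.6%). The gene sets used 1 promoter per symbol, while all promoters were taken as listed. These are letter matches only, and no binding was measured here. Mitosis genes that were not called were not searched, so the shares describe mitosis genes and cannot tie the letters to the rise in CH_3h. Shown are the 100 bases before the start of 3 mitosis genes that hold both, the ones with the largest rises among 6 such genes, with TTTGAA and CCAAT on either strand in capitals, 5′ to 3′ along the gene.
Kifc1 (chr20:5000829-5000928, plus strand): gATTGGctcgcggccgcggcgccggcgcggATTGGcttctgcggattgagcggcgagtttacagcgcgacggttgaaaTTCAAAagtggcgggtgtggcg
Cdc20 (chr5:137255800-137255899, minus strand): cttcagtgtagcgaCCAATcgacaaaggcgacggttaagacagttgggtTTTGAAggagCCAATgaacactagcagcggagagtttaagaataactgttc
Kif22 (chr1:191080879-191080978, minus strand): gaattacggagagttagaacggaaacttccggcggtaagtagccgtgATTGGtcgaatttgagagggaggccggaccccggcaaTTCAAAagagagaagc

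Among ribosome biogenesis genes, 14 of 28 tested members were called higher and 0 lower, with a median log2 fold change of 0.95, and median-ratio scaling gave 9 higher, 0 lower and a median of 0.62. Rrp12, a factor of ribosome export, was at 80.5, 82.2 and 68.5 CPM in CON and 359, 363 and 337 CPM in CH_3h (log2 fold change 2.19, SE 0.14, adjusted p = 1.09e-13). Rrp1b, a nucleolar protein, went from 71.3 ± 6.18 to 304 ± 11.1 CPM (2.08), Bop1, of the large-subunit assembly, from 82.1 ± 11.4 to 274 ± 21.97 CPM (1.73) and Npm1, nucleophosmin, from 133 ± 8.75 to 305 ± 7.90 CPM (1.20, not called after median-ratio scaling). The CH_3h samples of Rrp12 were all above the CON samples. Among cytosolic ribosomal protein genes, 3 of 29 tested members were called higher and 0 lower, with a median log2 fold change of 0.66 (1 and 0 after median-ratio scaling). Rps3 went from 714 ± 20.4 to 1471 ± 90.5 CPM (1.04, not called after median-ratio scaling), with the call also lost without CH_3h sample 2 (log2 fold change 0.99), and Rpl38 from 2.63 ± 0.895 to 8.93 ± 1.88 CPM (1.46). Among mitochondrial ribosomal protein genes, 5 of 30 tested members were called higher and 0 lower, with a median log2 fold change of 0.69, and Mrpl40 went from 22.03 ± 2.64 to 61.3 ± 4.95 CPM (1.44). Quantile normalization left 1 of these genes called higher, with a median of 0.35. Among respiratory chain genes, 2 of 42 tested members were called higher and 1 lower, with a median log2 fold change of 0.45 (0 and 1 after median-ratio scaling). Atp5f1b, a catalytic subunit of ATP synthase, went from 1356 ± 75.6 to 2947 ± 196 CPM (1.12, not called after median-ratio scaling).

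Among amino acid and unfolded protein response genes, 5 of 27 tested members were called higher and 0 lower, with a median log2 fold change of 0.52, and median-ratio scaling gave 4 higher, 1 lower and a median of 0.18. Slc7a5, the importer of large neutral amino acids, was at 125, 120.1 and 130.3 CPM in CON and 1123, 1162 and 1101 CPM in CH_3h (log2 fold change 3.16, SE 0.17, adjusted p = 2.12e-15). Phgdh, the first enzyme of serine synthesis, was at 7.59, 10.4 and 7.89 CPM in CON and 67.0, 67.2 and 52.1 CPM in CH_3h (log2 fold change 2.71, SE 0.17, adjusted p = 6.04e-14). Mthfd2, of mitochondrial one-carbon metabolism, went from 41.8 ± 2.94 to 171 ± 2.32 CPM (2.01) and Psph, the last enzyme of serine synthesis, from 12.2 ± 1.86 to 40.0 ± 4.57 CPM (1.64). In Slc7a5 and Phgdh no CH_3h sample came near a CON sample. Hspa5, the chaperone of the endoplasmic reticulum, was at 3869 ± 159.8 and 6119.6 ± 287 CPM and was not called. Among heat shock genes, 3 of 8 tested members were called higher and 0 lower, with a median log2 fold change of 0.48 (1 and 0 after median-ratio scaling), and Cryab, a small heat shock protein, went from 259 ± 14.8 to 697 ± 30.2 CPM (1.43, call lost under quantile normalization).

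Among cholesterol and fatty acid synthesis genes, 9 of 20 tested members were called higher and 1 lower, with a median log2 fold change of 0.91, and median-ratio scaling gave 4 higher, 2 lower and a median of 0.58. Fasn, fatty acid synthase, was at 694, 697 and 733 CPM in CON and 3194, 3441 and 2955 CPM in CH_3h (log2 fold change 2.17, SE 0.15, adjusted p = 1.12e-12). Cyp51, a demethylase of the cholesterol pathway, was at 1056, 1148 and 1112 CPM in CON and 3342, 3583 and 3335 CPM in CH_3h (log2 fold change 1.63, SE 0.14, adjusted p = 7.03e-11). Fdft1, squalene synthase, went from 326 ± 15.5 to 1023 ± 48.5 CPM (1.65), Sqle, which oxidizes squalene, from 440.0 ± 29.4 to 1216 ± 56.9 CPM (1.47) and Insig1, a brake on the pathway, from 723 ± 13.5 to 1576 ± 75.8 CPM (1.12, not called after median-ratio scaling). Fasn and Cyp51 were higher in each CH_3h sample than in any CON sample. Mylip, an E3 ligase that degrades the LDL receptor, went from 36.6 ± 3.56 to 7.15 ± 1.47 CPM (-2.22). Among glycolysis and hypoxia genes, 2 of 25 tested members were called higher and 4 lower, with a median log2 fold change of -0.31, and median-ratio scaling gave 1 higher, 5 lower and a median of -0.62. Beside Egln3 and Stc1, Bnip3, a mitophagy receptor, was at 347, 342 and 344 CPM in CON and 81.5, 96.9 and 73.5 CPM in CH_3h (log2 fold change -2.03, SE 0.12, adjusted p = 4.98e-14). All CH_3h samples of Bnip3 were below all CON samples. Ldha, of the last step of glycolysis, was at 2686 ± 108 and 4252 ± 119.7 CPM and Pgk1 at 2140.4 ± 67.8 and 1638 ± 92.3 CPM, neither of them called. Among NRF2 and metallothionein genes, 2 of 9 tested members were called higher and 1 lower, with a median log2 fold change of 0.68 (1 and 1 after median-ratio scaling), and Nqo1, a quinone reductase, went from 348 ± 7.83 to 901 ± 58.1 CPM (1.37, call lost under quantile normalization).

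Among Wnt pathway genes, 3 of 21 tested members were called higher and 4 lower, with a median log2 fold change of 0.38 (2 and 4 after median-ratio scaling), and the median turns to -0.05 with the 6 samples only. Fzd4, a Wnt receptor, was at 316, 278 and 310.3 CPM in CON and 74.8, 84.0 and 75.0 CPM in CH_3h (log2 fold change -1.94, SE 0.16, adjusted p = 2.62e-11). With Sfrp2 and Frzb, that makes a receptor and a pair of secreted antagonists among the lower genes. Fzd9 went from 0.139 ± 0.241 to 2.80 ± 0.234 CPM (1.76) and Lef1, a nuclear partner of beta-catenin, from 0.296 ± 0.269 to 2.02 ± 0.367 CPM (1.23, call lost under edgeR). Among Notch pathway genes, 2 of 11 tested members were called higher and 1 lower, with a median log2 fold change of 0.11 (1 and 2 after median-ratio scaling), with Dlk2 the largest rise and Notch2, a receptor, from 384 ± 11.6 to 832 ± 24.2 CPM (1.11, not called after median-ratio scaling), while Dll1, a ligand, went from 5.83 ± 1.72 to 1.73 ± 0.327 CPM (-1.30). Among IGF pathway genes, 0 of 6 tested members were called higher and 3 lower, with a median log2 fold change of -0.77. The largest fall of this list was that of Stc1 (-3.74), which is also counted among the glycolysis and hypoxia genes. Irs2, an adaptor of the insulin receptor, was at 139, 117 and 165 CPM in CON and 32.5, 31.7 and 32.5 CPM in CH_3h (log2 fold change -2.08, SE 0.14, adjusted p = 4.43e-13), and Igfbp6, a binding protein of IGF2, went from 434 ± 14.6 to 188 ± 14.1 CPM (-1.20). The CH_3h samples of Irs2 lay below the CON samples. Among MAPK feedback and FGF pathway genes, 1 of 11 tested members was called higher and 3 lower, with a median log2 fold change of -0.33. Spry2, a feedback inhibitor of receptor tyrosine kinases, went from 10.1 ± 3.81 to 2.82 ± 0.661 CPM (-1.5), Dusp4, a phosphatase of MAP kinases, from 37.0 ± 0.794 to 16.0 ± 1.38 CPM (-1.16) and Dusp6 from 39.1 ± 6.79 to 17.9 ± 2.59 CPM (-1.08), while Fgf18, a ligand that acts on chondrocytes, went from 0.194 ± 0.218 to 4.24 ± 0.717 CPM (2.14). The call of Dusp6 was lost without CH_3h sample 1 (log2 fold change -0.97) or CON sample 3 (-0.96).

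Among glucocorticoid-responsive genes, 2 of 10 tested members were called higher and 3 lower, with a median log2 fold change of -0.13. Tsc22d3, the leucine zipper protein that glucocorticoids induce, was at 31.1, 26.9 and 25.3 CPM in CON and 145, 138 and 111 CPM in CH_3h (log2 fold change 2.20, SE 0.15, adjusted p = 8.47e-13). Tgm2, a cross-linking enzyme, went from 1.01 ± 0.243 to 9.79 ± 2.88 CPM (2.40) and Hsd11b1, which activates glucocorticoids, from 1169.8 ± 101 to 508 ± 27.5 CPM (-1.20). The largest fall of this list was that of Gadd45a (-2.39), given below with the p53 targets, which also count it. Every CH_3h sample of Tsc22d3 was above every CON sample. Among immediate-early genes, 0 of 8 tested members were called higher and 0 lower, with a median log2 fold change of -0.19, with Jun at 21.98 ± 3.20 and 15.2 ± 0.834 CPM and Klf4 at 230.0 ± 12.3 and 413 ± 10.6 CPM. Among cell cycle inhibitors and p53 targets, 1 of 7 tested members was called higher and 1 lower, with a median log2 fold change of 0.19 (0 and 1 after median-ratio scaling), and Gadd45a, a stress gene of growth arrest, went from 10.9 ± 3.06 to 1.23 ± 0.298 CPM (-2.39).

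Among actin cytoskeleton and contractile genes, 10 of 30 tested members were called higher and 1 lower, with a median log2 fold change of 0.58, and median-ratio scaling gave 8 higher, 1 lower and a median of 0.29. Acta1, skeletal muscle actin, was at 0, 0.418 and 0 CPM in CON and 5.54, 5.58 and 6.52 CPM in CH_3h (log2 fold change 2.61, SE 0.26, adjusted p = 1.34e-09). Ankrd1, a target of YAP and stretch, went from 2.07 ± 0.308 to 9.80 ± 1.46 CPM (1.81) and Ajuba, a LIM protein of junctions, from 132 ± 8.44 to 350.0 ± 22.7 CPM (1.40, call lost under quantile normalization). Myh10, a non-muscle myosin heavy chain, was at 7812, 7945 and 7498 CPM in CON and 3381, 3470.4 and 3436 CPM in CH_3h (log2 fold change -1.18, SE 0.11, adjusted p = 2.48e-10). Acta1 was higher and Myh10 lower in all CH_3h samples than in any CON sample. Among adhesion genes, 4 of 16 tested members were called higher and 1 lower, with a median log2 fold change of 0.19 (3 and 2 after median-ratio scaling), and Sdc1, a heparan sulfate proteoglycan, went from 156 ± 4.02 to 740.3 ± 50.9 CPM (2.24), while Gja1, the gap junction protein connexin 43, went from 968 ± 99.9 to 299.7 ± 8.57 CPM (-1.68). Among solute carrier genes, 8 of 78 tested members were called higher and 6 lower, with a median log2 fold change of 0.34 (5 and 9 after median-ratio scaling), beside 13.1% and 4.88% of all tested genes. The list adds Slc25a5, an exchanger of ATP and ADP, from 35.4 ± 4.54 to 170.3 ± 13.7 CPM (2.24), and Slc15a3, a peptide transporter of endosomes, from 10.2 ± 2.83 to 1.85 ± 1.23 CPM (-2.06).

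**Figure D3:**
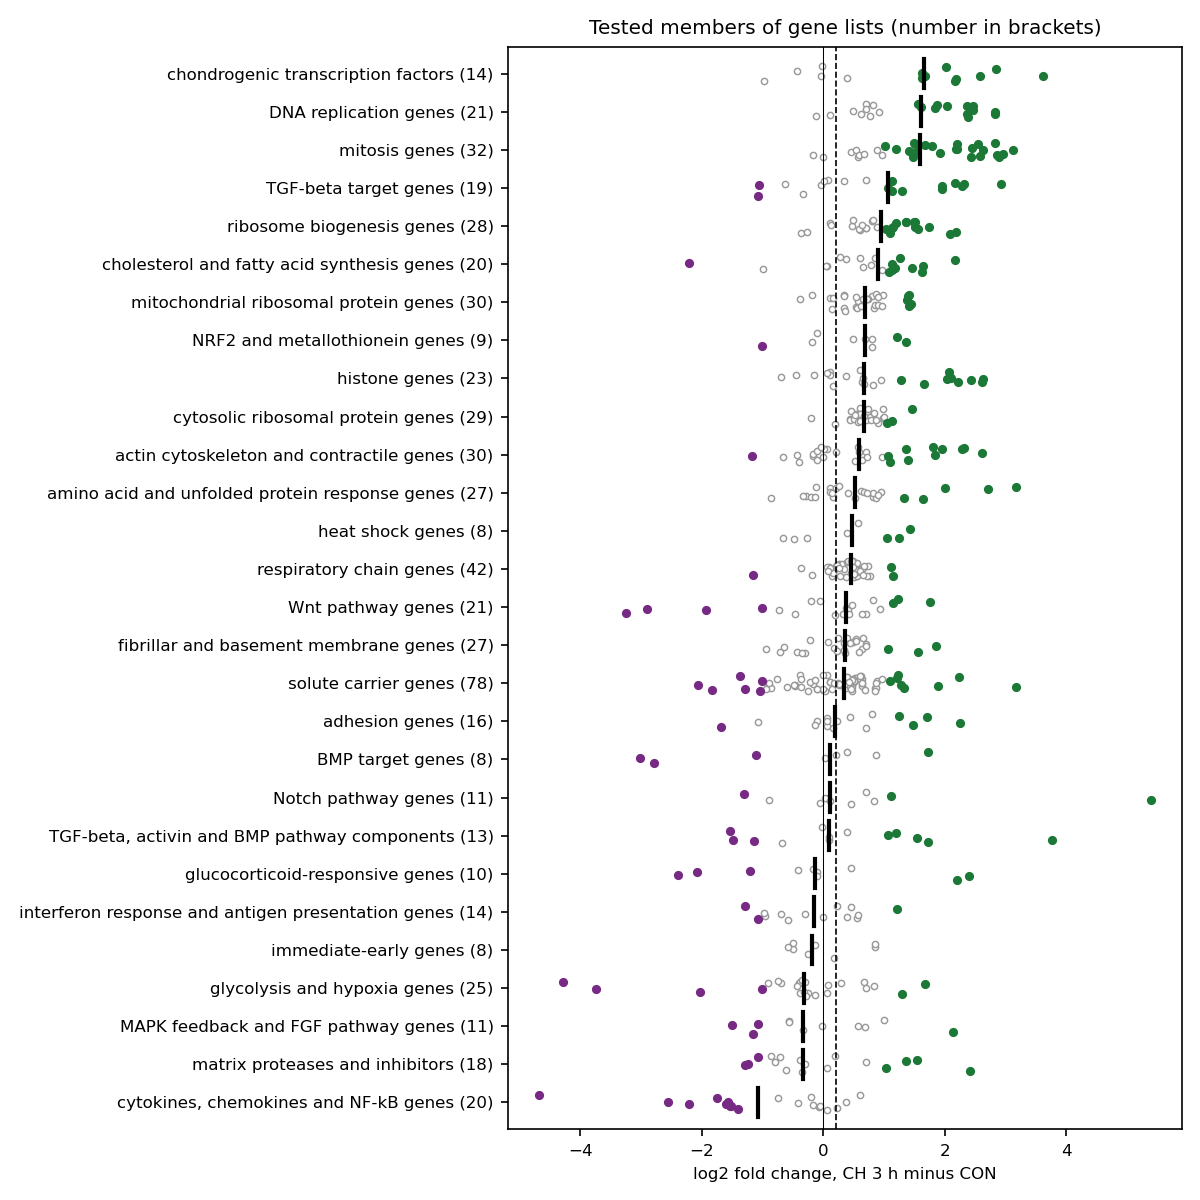
Log2 fold change of CH_3h against CON for the tested members of each gene list (points, coloured where called), with black bars for the list medians and a dashed line for the median of all tested genes. DNA replication and mitosis lists sit above the median of all tested genes and the cytokine list below it, while the medians of TGF-beta pathway components and of BMP targets change sign under median-ratio scaling.

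The chondrogenic samples were also set against OS_3h and AD_3h directly. Their fold changes do not use CON, whereas comparisons of each medium with CON share its 3 samples, and the SE and p of every contrast come from the fit to all 10 groups. Against OS_3h, 221 genes (5.07%) were called higher in CH_3h and 98 (2.25%) lower. OS_3h sample 3 stood apart from its group, since its scatter against the other samples was 64.8 and 75.2 in units of counting noise, where those differed by 3.44, and without it the counts were 230 and 95. Against AD_3h, 224 genes (5.13%) were higher and 184 (4.22%) lower. Sox9 was at 99.2, 99.5 and 103 CPM in OS_3h and 19.0, 17.6 and 14.4 CPM in AD_3h, and CH_3h was higher than both (log2 fold change 2.57, SE 0.14, adjusted p = 1.89e-14 against OS_3h and 5.07 against AD_3h). Angptl7 was at 12.1, 13.7 and 12.9 CPM in OS_3h and 0.442, 0.629 and 0.744 CPM in AD_3h (log2 fold change 5.17 and 8.29 in favour of CH_3h). No OS_3h or AD_3h sample reached a CH_3h sample in these genes. Gldn was at 291, 300.5 and 290.1 CPM in OS_3h and 6.30, 8.81 and 6.25 CPM in AD_3h, so it was higher in CH_3h than in AD_3h (log2 fold change 4.87) and not called against OS_3h (-0.32). Scx, Runx3 and Gbx2 were higher in CH_3h than in OS_3h at 2.31, 1.74 and 1.46, and than in AD_3h at 2.96, 1.93 and 1.73. Dhrs3, which reduces retinal, had 30.2, 28.4 and 34.4 CPM in OS_3h and 89.1, 82.8 and 80.9 CPM in AD_3h and was higher in CH_3h by 4.60 and 3.18. Some lists with many higher members against CON had few or no calls against the other media. Of 21 DNA replication genes and 28 ribosome biogenesis genes, limma called 0 higher and 0 lower against OS_3h and against AD_3h. Of 32 mitosis genes, it called 2 higher and 0 lower against OS_3h, and 2 higher and 1 lower against AD_3h. A missed call does not show that the levels were equal.

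Lower in CH_3h than in the other media were Has2 and Dusp4. Has2 was at 706, 708 and 513 CPM in OS_3h and 390.2, 459 and 401 CPM in AD_3h (log2 fold change -3.69, SE 0.27, adjusted p = 8.74e-12 against OS_3h, and -3.08 against AD_3h). Dusp4 was at 338, 331 and 468 CPM in OS_3h and 251, 248 and 273 CPM in AD_3h (log2 fold change -4.47 and -3.93). In both genes each CH_3h sample was below each sample of the other media. Cxcl1 was at 6934 ± 1593 CPM in OS_3h and 9157 ± 264 CPM in AD_3h (log2 fold change -2.62 and -3.05). Il6 was at 20.8, 29.0 and 22.01 CPM in AD_3h, well above CH_3h (log2 fold change -3.87), and at 2.82, 1.58 and 1.66 CPM in OS_3h, where the difference was -0.82 and not called. Id3 was lower in CH_3h than in OS_3h (-2.09) and not called against AD_3h (0.16). Cemip was lower in CH_3h than in AD_3h (-1.62), with OS_3h at 4114 ± 841 and AD_3h at 6424 ± 279 CPM.

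The chondrogenic cultures were also sampled at 12 h and 3 d, and the levels there are given without a test. Sox9 was at 638 ± 77.4 CPM at 12 h and 1299 ± 173 CPM at 3 d, and Angptl7 at 371 ± 93.1 and 8135 ± 1344 CPM. Both means at 3 d were above those at 3 h. Gldn was at 176 ± 6.82 and 6.97 ± 2.22 CPM, and Kifc1 at 51.2 ± 2.39 and 63.2 ± 10.4 CPM, below their 3 h means. Mgp was at 194 ± 16.1 and 9212 ± 1605 CPM and Id3 at 283 ± 7.91 and 739 ± 70.1 CPM. After the fall at 3 h, the mean of Mgp at 3 d was above that of CON, and that of Id3 differed from CON (714 ± 48.6 CPM) by less than the SD.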

How the data were processed

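RNA sequencing of 30 rat BMSC samples was analysed. The submitters' notes name Trimmomatic, HISAT2 and StringTie, without versions. The files call their values FPKM, but what the authors deposited is CPM: 100% of them are whole multiples of 1 step per sample within a tolerance of 0.01, which gives the reads and totals. The 10803 rows hold 9999 gene names, and the rows of the 729 names found more than once (up to 6 rows) were summed. The tests covered the 4363 genes that reached 1 CPM in 3 or more samples, with limma 3.58.1 (R 4.3.3, functions lmFit, contrasts.fit and eBayes with trend) on log2(CPM + 1) and 1 model of 10 groups. A call needed an absolute log2 fold change of 1 or more and an adjusted p under 0.05 (Benjamini-Hochberg, all tested genes). Alternatives were a pseudocount of 0.1, no filter, median-ratio scaling, quantile normalization, the 6 samples of a comparison only, a replicate block, each replicate left out, edgeR 4.0.16 (quasi-likelihood) on the recovered reads, which called 893 genes for CH_3h against CON, and shared names tested apart. Giving each sample the same sum of listed genes was chosen after seeing the data. The procedure was also run on simulated reads with known rises and falls in equal number and no other difference between groups. The simulation held no shift in the share of listed reads, so it cannot speak to the dependence on scaling. Genes named are the 10 largest rises and falls (8 each way against OS_3h and AD_3h) among called genes without overlap and with a mean of at least 5 CPM in the higher group, up to 4 called members each way of each gene list with further tested members given by value, and a set of regulators. Members and lists were chosen with earlier results of these data known. Other software was matplotlib 3.10.9, scipy 1.17.1, pandas 2.3.3 and numpy 2.4.6 under Python 3.11.15.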

Additional observations from a re-analysis of the deposited data

Results flagged for a closer look

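The genes below differed between chondrogenic medium and another medium at 3 h, each by a direct limma contrast with an adjusted p under 0.05. The fold changes do not use the CON samples, while the SE and p come from the fit to all 10 groups. Against OS_3h, CH_3h was higher (log2 fold change) for Angptl7 5.17, Dhrs3 4.60, Mip 3.66, Prima1 3.10, Kank4 3.06, Trim54 2.94, Rpp25 2.89, Mn1 2.88, Sox9 2.57, Sox11 1.0, Scx 2.31, Runx3 1.74 and Gbx2 1.46. It was lower for Dusp4 -4.47, Has2 -3.69, Gprc5a -3.14, Hcar2 -2.88, Dusp6 -2.83, Fgl2 -2.71, Ripk2 -2.62, Cxcl1 -2.62 and Id3 -2.09. Against AD_3h, CH_3h was higher (log2 fold change) for Angptl7 8.29, Sox9 5.07, Dlk2 4.94, Gldn 4.87, Brinp2 4.65, Kprp 3.88, Mip 3.66, Ctgf 3.48, Sox11 3.08, Scx 2.96, Runx3 1.93 and Gbx2 1.73. It was lower for Plau -4.37, Dusp4 -3.93, Il6 -3.87, Gadd45a -3.51, MGC94891 -3.46, Dll1 -3.34, Stab1 -3.26, Cxcl2 -3.20, Id2 -1.75, Has2 -3.08 and Cemip -1.62. Mip was listed at 0 in all OS_3h and AD_3h samples, so its fitted values depend on the pseudocount. The cause of these differences was not tested.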

How the results depend on the processing

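For CH_3h against CON, the higher genes numbered 368 after median-ratio scaling and 361 after quantile normalization, in place of 572. The lower genes numbered 323, 334 and, with edgeR, 442, in place of 213. For CH_3h against OS_3h, edgeR called 158 lower genes in place of 98. Of the list medians given in the report, these changed sign. TGF-beta, activin and BMP pathway components had -0.029 after median-ratio scaling, -0.057 after quantile normalization and -0.19 with edgeR. BMP target genes had -0.10, -0.16 and -0.11 in the same settings and -0.027 after scaling to the same sum. Wnt pathway genes had -0.051 with the 6 samples only. The cause was not tested. Leaving out each replicate in turn gave 785 to 837 called genes against CON (561 to 615 higher, 210 to 224 lower), 296 to 344 against OS_3h (210 to 230, 86 to 118) and 408 to 423 against AD_3h (224 to 234, 180 to 194). With the replicate block 784, 319 and 407 genes were called, and CH_3h and CON samples of the same number did not pair (correlations of deviations across genes 0.002, -0.024 and -0.005 for samples 1, 2 and 3), with other groups not examined. Of 136 genes chosen by the naming rule against CON, 107 kept their status, called or not called, in every alternative that had a value for them. Among these was Comp, a regulator-set gene that was never called. The other 29 lost their call in at least 1, mostly under a scaling or edgeR, with 0 reversed. Some genes lacked a value in an alternative, such as Lefty1 with the 6 samples only. The 16 against OS_3h and the 16 against AD_3h kept their calls in the alternatives that had a value for them. Depth limits genes of a few reads, and genes near 0 in CON have fitted fold changes that depend on the pseudocount.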
